A study of Mus musculus with 9 samples.

Results

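The 33 genes described here make cholesterol and fatty acids or control that synthesis. They were taken by name from a list, out of 35675 genes in the annotated count tables. They are 19 enzymes of the sterol pathway, 6 regulators and carriers of the sterol regulatory element-binding protein (SREBP) system, and 8 enzymes of fatty acid synthesis, elongation and desaturation. All 33 had enough counts to be tested. RNA was measured by sequencing of polyadenylated transcripts in 9 libraries of mouse embryonic fibroblasts (MEFs), all of the Dmdmdx genotype, a model of Duchenne muscular dystrophy in which the dystrophin gene carries a nonsense mutation. The 3 groups, of 3 libraries each, were MEFs with no treatment (MEF), MEFs with MyoD, a transcription factor that can start the skeletal muscle programme in fibroblasts (MyoD), and MEFs with MyoD plus F/R/C, a name the labels leave unexplained (F/R/C). The labels do not say whether libraries sharing a group stem from separate embryos or cultures, so the p-values measure the spread between these libraries, which may be technical. In bulk RNA, fewer cells of a type and less RNA per cell cannot be told apart.

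Cholesterol is built from acetyl-CoA through mevalonate, farnesyl pyrophosphate, squalene and lanosterol, and fatty acids are built from the same acetyl-CoA through malonyl-CoA. Both routes are switched on by the SREBP transcription factors. SREBP precursors sit in the endoplasmic reticulum with the escort protein SCAP. When sterols are low, SCAP carries them to the Golgi, where 2 proteases release the active factor, and when sterols are high the INSIG proteins hold SCAP back. SREBP-1, encoded by Srebf1, is known mainly for fatty acid genes, and SREBP-2, encoded by Srebf2, mainly for sterol genes. In muscle cells these pathways supply membranes, including those made during fusion.

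The libraries held 21112071 to 24291056 estimated counts. The unit of level is CPM, counts scaled to a common library size by edgeR, shown per library or as mean ± SD of 3 libraries. A count of 0 allows up to 3 counts, which at this depth are 0.113 to 0.144 CPM, and every member was above 5 CPM in every library. Libraries of the MEF and MyoD groups stood apart in cell type markers. The summed level of 10 fibroblast markers was 82810 CPM in MEF replicate 1 and 24928 and 20118 CPM in MEF replicates 2 and 3, and it was 34874 CPM in MyoD replicate 1 beside 10507 and 8677 CPM. Summed over 10 skeletal muscle markers, the level was 376 CPM in MEF replicate 3 and 5.12 and 4.87 CPM in the other 2, against 862 to 2503 CPM in MyoD and 22241 to 34807 CPM in F/R/C libraries. Mitochondrial genes took 0.819% to 1.22% of the counts in MEF and MyoD and 1.54% to 3.09% in F/R/C libraries.

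F/R/C libraries had lower levels of much of this pathway than MEF libraries. With edgeR's quasi-likelihood test and an adjusted p under 0.05, 17 of 33 members (51.5%) fell and 0 rose, where 18.1% of all genes tested fell and 19.5% rose. The median log2 fold change was -0.72 over the members and -0.04 over all genes. The 3 F/R/C libraries lay below the 3 MEF libraries for 20 members and above them for 2, together 66.7% of members, against 53.2% of all genes whose libraries did not overlap. By role, 10 of 19 sterol enzymes (median -0.61), 3 of 6 regulators and carriers (median -0.89) and 4 of 8 fatty acid enzymes (median -0.95) fell. The count of 17 depended on single libraries, being 12 without MEF replicate 1, 12 without MEF replicate 3, 12 without MyoD replicate 2, 11 without F/R/C replicate 1, 12 without F/R/C replicate 2 and 13 without F/R/C replicate 3. In those 6 fits 12.8% to 16.4% of all genes fell. Here and below, each named library was left out alone.

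Against MyoD libraries, 8 of 33 members (24.2%) fell in F/R/C libraries and 0 rose, where 16.1% of all genes fell and 17.8% rose. The median was -0.46 over the members and -0.02 over all genes. F/R/C libraries lay below the MyoD libraries for 16 members and above them for 6, together 66.7% of members against 49.8% of all genes. The count of 8 was 4 without MyoD replicate 1, 5 without F/R/C replicate 1 and 4 without F/R/C replicate 3, when 11.3%, 11.6% and 10.9% of all genes fell. A count of 4 members is 12.1%, close to the shares of all genes without MyoD replicate 1 or F/R/C replicate 3. This comparison shares the F/R/C libraries with the one above. Side by side, 7 members fell against both groups (Srebf1, Scap, Fdft1, Tm7sf2, Msmo1, Acly and Fads1), 10 passed the test against MEF alone, 1 (Hsd17b7) against MyoD alone, and 15 against neither. The matching shares of all genes were not counted, so these numbers only sort the members.

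**Figure D1:**
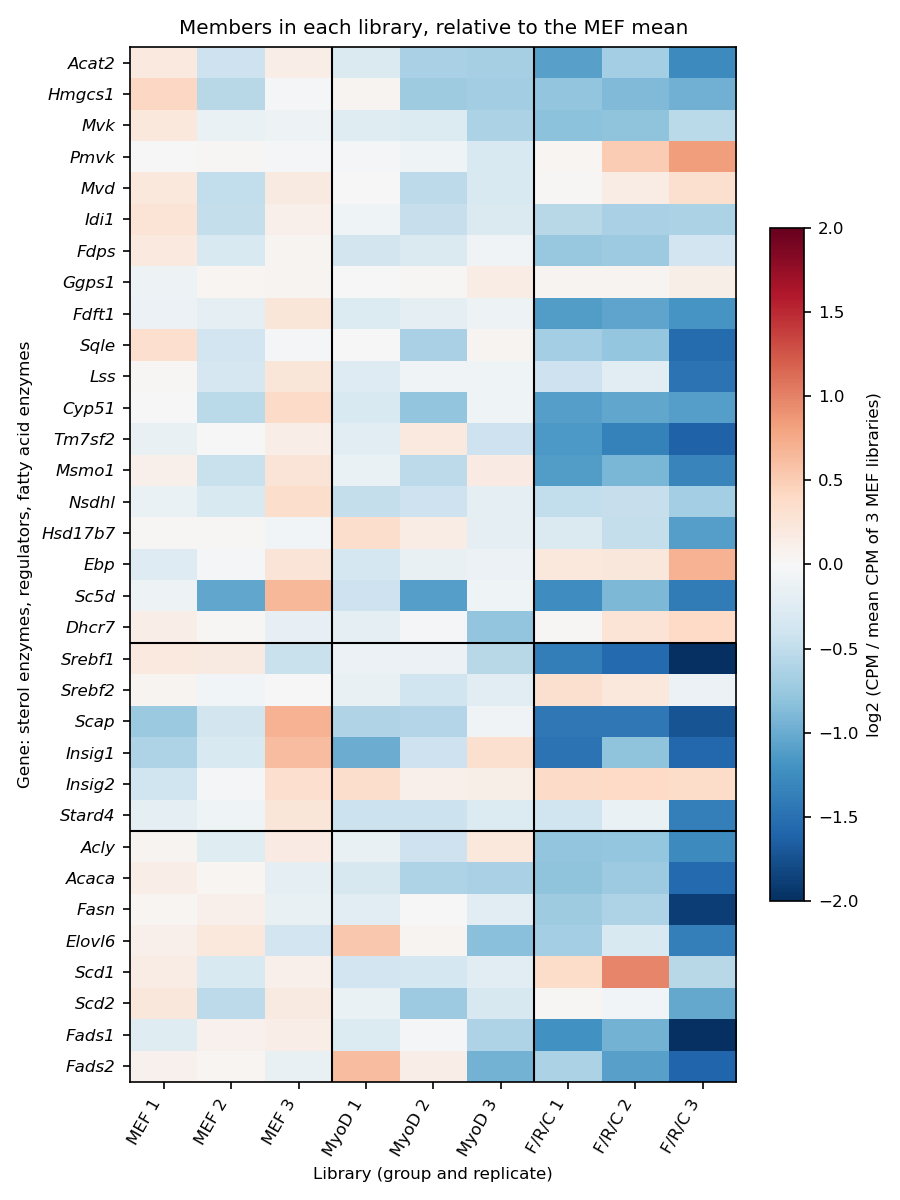
Each row is a member and each column a library, and colour gives log2 of the CPM over the mean CPM of the 3 MEF libraries. Black lines separate the groups and the sterol enzymes, regulators and fatty acid enzymes. Most rows turn blue in the 3 F/R/C columns, while Pmvk, Mvd, Ggps1, Ebp, Dhcr7 and Insig2 do not. Among the F/R/C columns, Srebf2 and Scd1 lie below the MEF mean only in replicate 3. Scd2 is near that mean in F/R/C replicates 1 and 2.

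**Figure D2:**
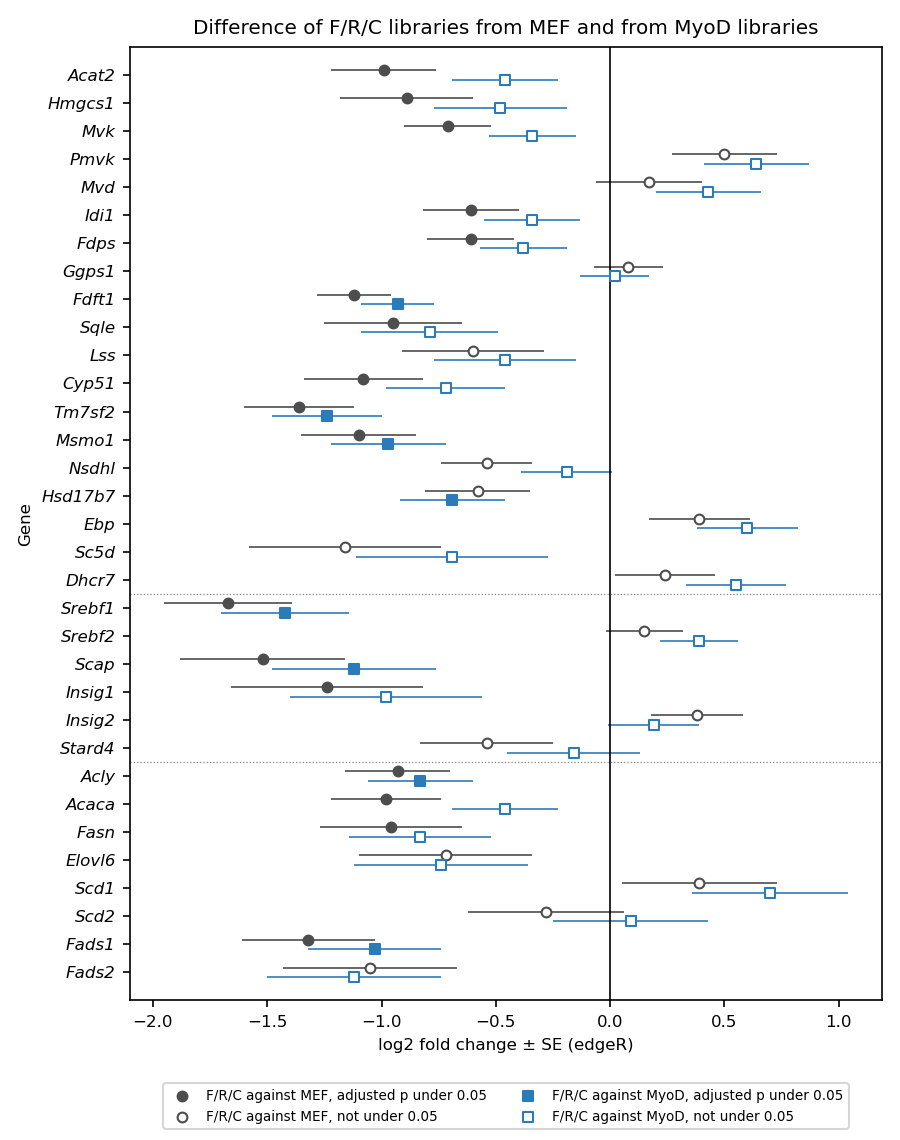
Log2 fold changes ± SE of F/R/C libraries against MEF (grey circles) and against MyoD (blue squares) are shown for 33 members, with filled symbols for an adjusted p under 0.05. Filled symbols stand only left of 0, 17 for MEF and 8 for MyoD.

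Of the 2 genes that encode SREBPs, Srebf1 fell and Srebf2 did not pass the test. Srebf1 was at 183, 180.4 and 117 CPM in untreated MEFs, 148, 148 and 109.6 CPM in the MyoD group and 61.7, 54.7 and 34.5 CPM in the F/R/C group. All 3 F/R/C libraries were below the lowest of the other 6. The log2 fold change was -1.67 ± 0.28 against MEF (edgeR adjusted p = 0.00253) and -1.42 ± 0.28 against MyoD (adjusted p = 0.00599), and both calls held in all 19 alternatives tried. Srebf2 was at 208, 192 and 199 CPM in untreated MEFs, 181, 152 and 172 CPM in the MyoD group and 248, 232 and 184 CPM in the F/R/C group. Its F/R/C libraries overlapped the MEF libraries and lay just above the MyoD libraries, with log2 fold changes of 0.15 ± 0.17 (adjusted p = 0.536) and 0.39 ± 0.17 (adjusted p = 0.110). Without F/R/C replicate 3 the value against MyoD passed the test (adjusted p = 0.0458).

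Scap, the gene of the escort protein, was at 119, 154 and 322 CPM in untreated MEFs, 131, 132 and 188 CPM in the MyoD group and 73.8, 74.0 and 59.8 CPM in the F/R/C group. The F/R/C libraries were close together and below all others, while MEF replicate 3 was far above the other MEF libraries. Scap fell by 1.52 ± 0.36 on the log2 scale against MEF (adjusted p = 0.0114) and by 1.12 ± 0.36 against MyoD (adjusted p = 0.0401). The second call ended when any 1 of the MyoD or F/R/C libraries was left out (adjusted p 0.0648 to 0.121). Insig1, a retention factor that is itself an SREBP target, was at 74.5, 92.5 and 176 CPM in untreated MEFs, 57.7, 86.1 and 142 CPM in the MyoD group and 41.1, 65.4 and 38.6 CPM in the F/R/C group. Against MEF it fell (log2 fold change -1.24 ± 0.42, adjusted p = 0.0461). That call ended without MEF replicate 2 or 3, without MyoD replicate 2 and without F/R/C replicate 1 or 3 (adjusted p 0.0570 to 0.142). Against MyoD its value was -0.98 ± 0.42 (adjusted p = 0.103, and 0.0491 without MEF replicate 3).

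Insig2, the other retention factor, had 27.8, 36.2 and 46.4 CPM in untreated MEFs, 47.1, 39.5 and 39.9 CPM in the MyoD group and 48.0, 48.7 and 47.3 CPM in the F/R/C group. Its F/R/C libraries lay above both other groups, by 0.38 ± 0.20 (adjusted p = 0.166) and 0.19 ± 0.20 (adjusted p = 0.502), neither of which passed the test. Stard4, a soluble sterol carrier, had 38.6 ± 6.40 CPM in untreated MEFs, 29.7 ± 2.01 CPM in the MyoD group and 26.5 ± 10.4 CPM in the F/R/C group, and passed no test.

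**Figure D3:**
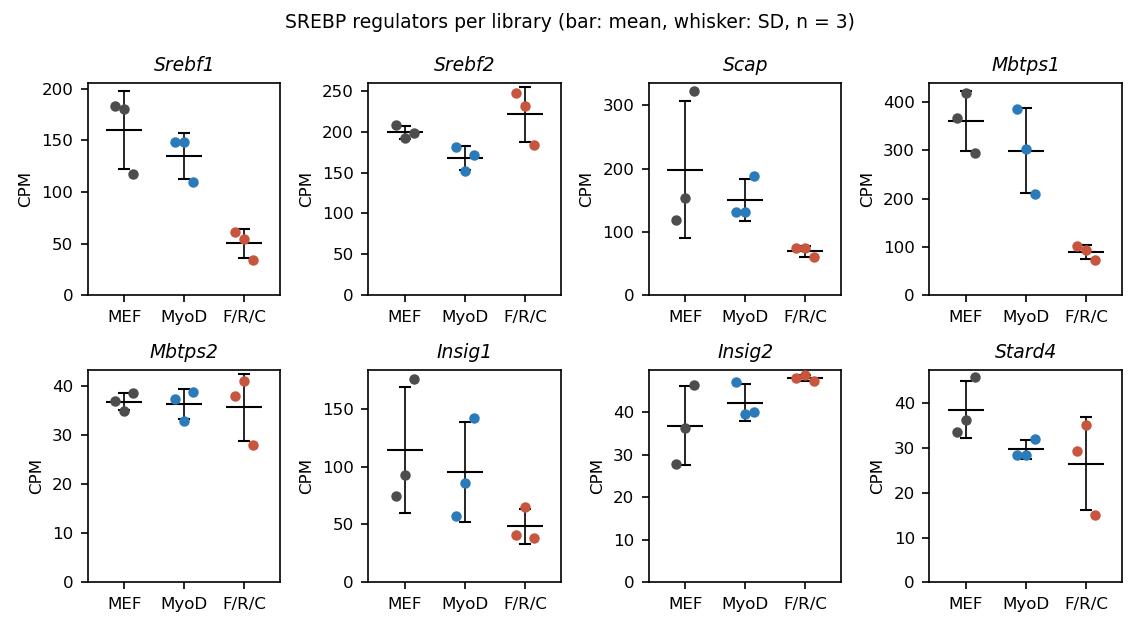
Points give CPM of each library for 8 genes of SREBP control, with the mean as a bar and the SD as a whisker (n = 3). Srebf1, Scap and Mbtps1 sit lower in all F/R/C libraries than in any other library, Srebf2 and Mbtps2 do not.

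The genes that process SREBPs and degrade their sterol-controlled partners were taken from a list of 7 outside the members. Against MEF 2 fell (28.6%) and 1 rose (14.3%), where 18.1% of all genes fell and 19.5% rose. Against MyoD 1 fell and 1 rose (14.3% each), where 16.1% of all genes fell and 17.8% rose. The site-1 protease gene Mbtps1, whose product makes the first cut in the SREBP precursor, was at 368, 418 and 295 CPM in untreated MEFs, 386, 302 and 209.6 CPM in the MyoD group and 101, 93.7 and 73.2 CPM in the F/R/C group. It fell by 2.01 ± 0.27 on the log2 scale against MEF (adjusted p = 0.0011) and by 1.74 ± 0.27 against MyoD (adjusted p = 0.00256). The site-2 protease gene Mbtps2, which makes the second cut, was at 36.9 ± 1.80, 36.4 ± 3.16 and 35.8 ± 6.80 CPM (log2 fold change -0.05 ± 0.18 against MEF, adjusted p = 0.863). The ubiquitin ligase gene Rnf145 fell against MEF (-1.07 ± 0.30, adjusted p = 0.021). Erlin2, of an endoplasmic reticulum complex that takes part in regulated degradation, rose (0.63 ± 0.18, adjusted p = 0.0244).

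Promoter windows from RefSeq (GRCm38.p6, 250 bases before to 50 after the start) were found for 26 of the 33 members. Motifs were searched on both strands. The sterol regulatory element, as TCACNCCAC, was in 1 of the 26 (3.85%), against 1.44% of all genes in the table. Only this pattern was searched, so elements spelled otherwise were missed and a window without a match may still hold one. The E-box CACGTG was in 5 (19.2%, against 8.09%), namely Dhcr7, Hsd17b7, Insig1, Sc5d and Scap. The CCAAT box, bound by a factor known to act beside SREBPs, was in 21 (80.8%, against 41.1%). It was in 10 of the 13 members with a window that fell against MEF and in 11 of the 13 that were not called. A match is a description of letters in these windows and does not show binding. The stretches below are shown because they set the element of Hmgcs1, whose level fell, and the CCAAT boxes of members that fell (Srebf1, Insig1, Fasn) beside that of Srebf2, which was not called. Capitals mark the 1 match named on each line, and ATTGG is CCAAT on the other strand. The Fasn stretch also holds a CCAAT 62 bases before the start, left in lower case. None of the stretches overlaps a GENCODE M21 exon, and the second of Srebf1 lies in an intron, before an inner start of that gene.
Hmgcs1 (chr13:119690184-119690252, plus strand, sterol regulatory element 137 bases before the start): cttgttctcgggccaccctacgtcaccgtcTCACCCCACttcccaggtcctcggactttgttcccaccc
Srebf1 (chr11:60222713-60222777, minus strand, CCAAT box 166 bases before the outer start): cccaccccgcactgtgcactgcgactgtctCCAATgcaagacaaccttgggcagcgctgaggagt
Srebf1 (chr11:60210472-60210531, minus strand, CCAAT box 30 bases before the inner start): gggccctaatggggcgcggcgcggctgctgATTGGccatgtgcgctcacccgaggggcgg
Insig1 (chr5:28071166-28071230, plus strand, CCAAT box 216 bases before the start): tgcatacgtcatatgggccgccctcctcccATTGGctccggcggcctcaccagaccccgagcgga
Fasn (chr11:120824603-120824667, minus strand, CCAAT box 90 bases before the start): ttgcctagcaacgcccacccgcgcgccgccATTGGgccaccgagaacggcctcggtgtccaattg
Srebf2 (chr15:82147104-82147168, plus strand, CCAAT box 135 bases before the start): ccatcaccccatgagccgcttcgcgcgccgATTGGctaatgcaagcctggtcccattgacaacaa

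In the first steps of the sterol pathway, from acetyl-CoA to farnesyl pyrophosphate, 5 of 7 members fell against MEF, where 18.1% of all genes did. Acat2, which joins 2 acetyl-CoA, was at 71.3, 46.6 and 68.1 CPM in untreated MEFs, 50.6, 39.7 and 39.1 CPM in the MyoD group and 29.3, 38.8 and 25.7 CPM in the F/R/C group. Its F/R/C libraries were below all others, and the log2 fold change was -0.99 ± 0.23 against MEF (adjusted p = 0.0113) and -0.46 ± 0.23 against MyoD (adjusted p = 0.155). Acat3, a near copy with 0 to 190 counts a library, could share its reads. The sum of both genes was 67.7 ± 14.1 CPM in untreated MEFs, 46.2 ± 6.80 CPM in the MyoD group and 32.0 ± 7.81 CPM in the F/R/C group, in the same order.

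Hmgcs1, the HMG-CoA synthase whose promoter element is printed above, was at 282, 144 and 207 CPM in untreated MEFs, 219, 129 and 129.9 CPM in the MyoD group and 122, 114 and 108 CPM in the F/R/C group. The level fell against MEF (-0.89 ± 0.29, adjusted p = 0.0426). The call ended without MEF replicate 1 or 3, without MyoD replicate 2 and without any 1 of the F/R/C libraries (adjusted p 0.0553 to 0.114). Mvk, mevalonate kinase, was at 39.2, 30.9 and 31.5 CPM in untreated MEFs, 28.6, 28.1 and 21.9 CPM in the MyoD group and 19.2, 19.3 and 23.4 CPM in the F/R/C group. It fell against MEF (-0.71 ± 0.19, adjusted p = 0.0185), a call that ended without F/R/C replicate 1 or 2 (adjusted p 0.0599 to 0.0624).

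The next enzymes did not move together. Pmvk, phosphomevalonate kinase, had 18.3 ± 0.446 CPM in untreated MEFs, 16.6 ± 1.63 CPM in the MyoD group and 25.9 ± 7.02 CPM in the F/R/C group, which lay above both other groups, and passed neither test (adjusted p = 0.113 and 0.0571). Without F/R/C replicate 1 its value against MEF was 0.69 (adjusted p = 0.0387) and against MyoD 0.83 (adjusted p = 0.0246). Mvd, the decarboxylase that follows, had 33.8 ± 8.55, 28.2 ± 5.16 and 38.0 ± 3.99 CPM in the 3 groups and passed no test. Idi1, which isomerises the product, fell against MEF from 87.4 ± 22.2 to 57.2 ± 1.92 CPM (-0.61 ± 0.21, adjusted p = 0.0483), with 72.4 ± 9.39 CPM in MyoD libraries. That call was lost when any library but MEF replicate 2 was left out (adjusted p 0.0575 to 0.121).

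At the branch point, Fdps, the synthase of farnesyl pyrophosphate, was at 129.6, 91.2 and 117 CPM in untreated MEFs, 87.6, 92.5 and 107 CPM in the MyoD group and 66.4, 68.2 and 86.3 CPM in the F/R/C group. Against MEF it fell (-0.61 ± 0.19, adjusted p = 0.0335), though not without MEF replicate 1 or 3, without MyoD replicate 2 and without F/R/C replicate 1 or 2 (adjusted p 0.0605 to 0.103). Ggps1, which leads away from sterols to geranylgeranyl pyrophosphate, had 28.3 ± 1.63, 29.6 ± 1.60 and 29.9 ± 0.781 CPM in the 3 groups (log2 fold change 0.08 ± 0.15 against MEF, adjusted p = 0.697).

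Of the enzymes committed to sterols, from squalene onward, 5 of 11 fell against MEF and 4 against MyoD, where 18.1% and 16.1% of all genes did. Fdft1, squalene synthase and the first of them, was at 85.8, 81.9 and 110.0 CPM in untreated MEFs, 76.9, 81.1 and 86.2 CPM in the MyoD group and 42.5, 44.7 and 40.7 CPM in the F/R/C group. Within each of the 3 groups its libraries were close, and the F/R/C libraries were apart from the rest. The log2 fold change was -1.12 ± 0.16 against MEF (adjusted p = 0.00147) and -0.93 ± 0.16 against MyoD (adjusted p = 0.00397), and both calls held in all 19 alternatives. Fdft1 shares 774 exon bases, 18.3% of its own, with Ctsb on the opposite strand, which had 21.5 counts for each of its counts. Ctsb, a lysosomal protease gene, also fell against MEF (-0.84 ± 0.22, adjusted p = 0.018), and whether the counting used strand is not given in the sources used here, so the size of the fall of Fdft1 is uncertain.

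Sqle, squalene epoxidase, was at 135, 82.4 and 105 CPM in untreated MEFs, 107, 68.8 and 112 CPM in the MyoD group and 66.8, 63.0 and 36.8 CPM in the F/R/C group. The level fell against MEF (-0.95 ± 0.30, adjusted p = 0.035), a call lost without MEF replicate 1 or 3 and without F/R/C replicate 2 or 3 (adjusted p 0.0521 to 0.0938). Against MyoD its value was -0.79 ± 0.30 (adjusted p = 0.0713, and 0.0493 without MyoD replicate 2). Cyp51, lanosterol demethylase, was at 150.1, 102 and 194 CPM in untreated MEFs, 121, 85.8 and 140.0 CPM in the MyoD group and 69.2, 72.1 and 69.2 CPM in the F/R/C group. Its F/R/C libraries were nearly equal and below all others, with -1.08 ± 0.26 against MEF (adjusted p = 0.0123) and -0.72 ± 0.26 against MyoD (adjusted p = 0.0621). The second value passed the test without MEF replicate 2 or 3 and without MyoD replicate 2 (adjusted p 0.0302 to 0.0467).

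Tm7sf2, a sterol reductase that acts after Cyp51, had the largest fall among the sterol enzymes. It was at 16.4, 18.3 and 19.9 CPM in untreated MEFs, 15.8, 20.8 and 13.7 CPM in the MyoD group and 8.23, 7.11 and 5.91 CPM in the F/R/C group. The log2 fold change was -1.36 ± 0.24 against MEF (adjusted p = 0.00323) and -1.24 ± 0.24 against MyoD (adjusted p = 0.0059), and both calls held in all 19 alternatives. It shares 532 exon bases with Vps51 on the same strand, 12.1% of its own. Vps51 had 31.3 ± 6.78, 32.3 ± 4.80 and 26.5 ± 2.84 CPM in the 3 groups and passed no test. Smaller shares of exon bases overlap for Ggps1 with Arid4b (5.44%), Cyp51 with Akap9 (3.76%) and Srebf1 with Rai1 (1.93%), and 0 of these 3 partners were called.

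Msmo1, which removes methyl groups from the sterol ring, was at 115, 78.0 and 127 CPM in untreated MEFs, 97.5, 74.2 and 119 CPM in the MyoD group and 49.1, 56.9 and 42.7 CPM in the F/R/C group. It fell against MEF (-1.10 ± 0.25, adjusted p = 0.00898) and against MyoD (-0.97 ± 0.25, adjusted p = 0.0174), the second call being lost without F/R/C replicate 1 or 3 (adjusted p 0.0521 to 0.0593). Hsd17b7, a ketoreductase of the same demethylation complex, was at 86.9, 87.3 and 82.6 CPM in untreated MEFs, 109, 94.4 and 74.7 CPM in the MyoD group and 70.3, 61.7 and 39.8 CPM in the F/R/C group. It fell against MyoD (-0.69 ± 0.23, adjusted p = 0.0476) and did not pass the test against MEF (-0.58 ± 0.23, adjusted p = 0.0796). The call against MyoD was lost without MEF replicate 2, without MyoD replicate 1 or 2 and without F/R/C replicate 2 or 3 (adjusted p 0.0517 to 0.146).

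The other enzymes of this stretch passed neither test. Lss, lanosterol synthase, ranged over 39.5 to 58.8 CPM in MEF, 41.3 to 47.2 CPM in MyoD and 17.8 to 42.9 CPM in F/R/C libraries. Nsdhl, a dehydrogenase of the demethylation complex, had 49.5 ± 12.2, 38.8 ± 4.39 and 34.0 ± 2.65 CPM in the same order. Sc5d, the sterol desaturase, had 80.5, 42.1 and 137 CPM in MEF libraries, a spread that its F/R/C libraries (36.5, 46.4 and 32.7 CPM) overlapped. Its value was -1.16 ± 0.42 (adjusted p = 0.056), and it passed the test without MEF replicate 2 (-1.55, adjusted p = 0.0163), as did Nsdhl (-0.73, adjusted p = 0.0402). Ebp, the sterol isomerase, and Dhcr7, the last reductase before cholesterol, had positive values. Ebp was at 16.9 ± 3.01, 14.7 ± 1.24 and 22.2 ± 4.55 CPM and Dhcr7 at 43.0 ± 4.40, 34.7 ± 8.65 and 50.8 ± 6.54 CPM. The F/R/C libraries of both lay above the MyoD libraries (adjusted p = 0.0683 and 0.0823) and overlapped the MEF libraries.

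Summed over the 19 sterol enzymes, levels were 1538, 1079 and 1558 CPM in untreated MEFs, 1268, 1029 and 1201 CPM in the MyoD group and 857, 891 and 806 CPM in the F/R/C group. The 3 F/R/C libraries were the lowest of the 9. MEF replicate 2 was the lowest MEF library for 13 of the 19 enzymes, a count not made over all genes.

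Per length, the most abundant members in MEF libraries were the desaturase Scd2 at 227 ± 51.7 TPM and Fdps at 186 ± 29.8 TPM, and the least abundant were Stard4 at 14.5 ± 2.12 TPM and Elovl6 at 18.7 ± 4.44 TPM. Fdps was above the other called sterol enzymes in F/R/C libraries, at 93.5 ± 1.12 TPM. The next of them, Msmo1, was at 58.8 ± 20.6 TPM, and Tm7sf2 was at 8.51 ± 2.04 TPM, the second lowest level among the members after Acaca at 8.21 ± 3.80 TPM.

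Of the fatty acid genes, Acly, Acaca, Fasn and Fads1 fell against MEF. Acly, which cleaves citrate to cytosolic acetyl-CoA, was at 229.6, 186 and 246 CPM in untreated MEFs, 198, 166 and 254 CPM in the MyoD group and 128, 129 and 90.9 CPM in the F/R/C group. It fell against MEF (-0.93 ± 0.23, adjusted p = 0.0137) and against MyoD (-0.83 ± 0.23, adjusted p = 0.0243), the second call being lost without MyoD replicate 1 or 3 and without F/R/C replicate 3 (adjusted p 0.0555 to 0.0673). Acaca, acetyl-CoA carboxylase 1, which makes malonyl-CoA and is the committed step, was at 96.5, 90.5 and 78.1 CPM in untreated MEFs, 70.8, 57.9 and 56.3 CPM in the MyoD group and 50.7, 53.5 and 30.1 CPM in the F/R/C group. The 3 groups did not overlap, and the fold changes of F/R/C libraries were -0.98 ± 0.24 against MEF (adjusted p = 0.0117) and -0.46 ± 0.23 against MyoD (adjusted p = 0.158). Fasn, fatty acid synthase, was at 322, 338 and 283 CPM in untreated MEFs, 272, 313 and 271 CPM in the MyoD group and 193, 206 and 84.9 CPM in the F/R/C group. The level fell against MEF (-0.96 ± 0.31, adjusted p = 0.0377), a call lost without MEF replicate 1 or 2, without MyoD replicate 1 or 2 and without F/R/C replicate 1 (adjusted p 0.0518 to 0.0834).

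Among the polyunsaturated fatty acid desaturases, Fads1 was at 156, 197 and 202 CPM in untreated MEFs, 153, 181 and 121 CPM in the MyoD group and 79.9, 96.3 and 46.0 CPM in the F/R/C group. It fell against MEF (-1.32 ± 0.29, adjusted p = 0.00793) and against MyoD (-1.03 ± 0.29, adjusted p = 0.0236), the second call being lost without MyoD replicate 1 or 2 and without F/R/C replicate 1 (adjusted p 0.0545 to 0.0724). Its neighbour in function Fads2 was at 71.4 ± 5.94, 75.1 ± 36.7 and 34.5 ± 11.3 CPM. Its values were of like size (-1.05 ± 0.38 and -1.12 ± 0.38) but just missed the threshold (adjusted p = 0.0584 and 0.0503), which they passed in 6 and 8 of the 19 alternatives. Elovl6, which elongates palmitate, had 60.9 ± 12.5, 61.6 ± 27.1 and 37.0 ± 12.8 CPM and passed the test only against MyoD without MyoD replicate 3 (-1.04, adjusted p = 0.0437) and in fits with the replicate block or without replicate 3 of both other groups.

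The stearoyl-CoA desaturases, which make monounsaturated fatty acids, passed neither test. Scd1 was at 256, 187 and 247 CPM in untreated MEFs, 177, 181 and 199 CPM in the MyoD group and 297, 450.2 and 157 CPM in the F/R/C group. F/R/C replicate 2 was the highest and F/R/C replicate 3 the lowest of all 9 libraries, and the values were 0.39 ± 0.34 (adjusted p = 0.39) and 0.70 ± 0.34 (adjusted p = 0.14). Without F/R/C replicate 3 Scd1 passed the test against MyoD (adjusted p = 0.0227). Scd2 had 694 ± 183, 536 ± 108 and 571 ± 198 CPM and was the only member whose sign differed between the comparisons (-0.28 ± 0.34 and 0.09 ± 0.34). The 2 genes are close paralogues whose reads the counting could split, and their sum was 924 ± 219.9, 721 ± 109 and 872 ± 327 CPM.

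Among the F/R/C libraries, replicate 3 often had the lowest level. It was the lowest F/R/C library for 24 of 33 members, including all 8 fatty acid enzymes and all 6 regulators and carriers, and for 10 of the 19 sterol enzymes. How often it was the lowest over all genes was not counted, so this is not read as particular to the members. The sum over the fatty acid enzymes was 800.2 CPM there and 1535 and 1683 CPM in F/R/C replicates 1 and 2, against 1626 to 2014 CPM in MEF and 1459 to 1702 CPM in MyoD libraries. The same library had the highest summed skeletal muscle markers (34807 CPM), though not each marker followed the sum. Ckm (166, 192 and 113 CPM) and Ttn (1497, 1739 and 1147 CPM) were lowest of the F/R/C libraries in replicate 3. Without F/R/C replicate 3, 13 members (39.4%) fell against MEF, where 12.8% of all genes did, and 4 (12.1%) against MyoD, where 10.9% did.

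Adipocytes make fatty acids at high rates, and their markers were present. The sum of 10 adipocyte markers was 118 to 166 CPM in untreated MEFs, 43.3 to 151 CPM in the MyoD group and 108 to 247 CPM in F/R/C. Much of the F/R/C sum was Lpl, a lipase that muscle also expresses. Lpl was at 49.6, 52.3 and 78.4 CPM in untreated MEFs and 83.9, 145 and 113 CPM in F/R/C, and it rose against MyoD (1.82 ± 0.41, adjusted p = 0.0108). Against MEF 0 of 9 tested markers passed, and 7 had negative values and 2 positive ones (median log2 fold change -0.93). Adipoq, a defining marker, was at 10.9, 8.94 and 4.52 CPM in untreated MEFs, 9.85, 4.38 and 0 CPM in the MyoD group and 1.26, 8.02 and 0.384 CPM in the F/R/C group. F/R/C replicate 2, where Scd1 was highest, was also highest of the F/R/C libraries for these markers. The 10 markers of dividing cells summed to 111 to 269 CPM in untreated MEFs, 153 to 183 CPM in the MyoD group and 154 to 243 CPM in F/R/C, and 0 were called. All 10 skeletal muscle markers rose against MEF and 3 of 10 fibroblast markers fell (summed 20118 to 82810 CPM in untreated MEFs, 8677 to 34874 CPM in the MyoD group and 5447 to 8228 CPM in F/R/C). Macrophage markers summed to 2.98 to 8.98, 6.38 to 15.4 and 16.8 to 39.3 CPM, with Adgre1 and Tyrobp at 0 in all F/R/C libraries. Of 5 tested macrophage markers 3 rose against MEF and 0 fell. They were Itgam (0.0907 ± 0.0497 to 3.77 ± 0.993 CPM, adjusted p = 0.00044), Fcer1g (0.254 ± 0.0838 to 14.2 ± 14.5 CPM, adjusted p = 0.00209) and Cd68 (2.04 ± 0.524 to 5.3 ± 1.1 CPM, adjusted p = 0.0154). The other tested markers, Lyz2 (-1.86 ± 1.46, adjusted p = 0.345) and Csf1r (-0.24 ± 0.8, adjusted p = 0.836), had negative values and were not called. Fcer1g reached 30.9 CPM in F/R/C replicate 3, the library with the lowest summed fatty acid enzymes. Epithelial markers summed to at most 7.65 CPM, with Krt5 and Krt14 at 0 throughout, and 2 of 3 tested rose against MEF, Cdh1 from 0.0465, 0 and 0.185 CPM to 1.51, 3.1 and 1.97 CPM (adjusted p = 0.00616) and Krt8 from 0 in all MEF libraries to 0.805 ± 0.211 CPM (adjusted p = 0.00765). Endothelial markers summed to at most 3.15 CPM, and 1 of 2 tested, Tek, fell from 1.7 ± 0.548 to 0.06 ± 0.0523 CPM (adjusted p = 0.00179). The part of cell makeup in the members' levels was not tested.

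Between MyoD and MEF libraries the members had log2 fold changes from -0.52 to 0.20. Against MEF, 0 of 33 members passed edgeR's test at an adjusted p under 0.05, as did 0% of all genes, and 0 members had an unadjusted p under 0.05, against 4.66% of all genes. The same test called 0 of 10 skeletal muscle markers, though their median log2 fold change was 3.35 and all 10 lay above the MEF libraries. A count of 0 called members therefore does not show that they were unchanged. DESeq2 also called 0 members, though it called 160 genes higher and 11 lower. The median log2 fold change was -0.25 over the members, 28 of which had negative values, and -0.01 over all genes. The MyoD and MEF libraries did not overlap for 4 members (12.1%, against 7.52% of all genes), which were Mvk, Srebf2, Stard4 and Acaca, all lower in MyoD. Acaca had the lowest value of these (-0.52 ± 0.23, unadjusted p = 0.054, adjusted p = 1).

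Libraries of equal replicate number in MEF and MyoD deviated together, so each MyoD library was also set beside the MEF library of its number. The MyoD library was lower at each of 3 numbers for 21 of 33 members (63.6%) and higher at each for 0, where 19.4% of all genes were lower at each and 17.4% higher. This count depended on the scaling. It was 20 with median-ratio factors (17.2% of all genes), but 8 lower and 1 higher with total counts alone, where 10.9% of all genes were lower and 28.3% higher. Taking the replicate number as a block in the fit of all 9 libraries called 0 members. That fit also ties in the F/R/C libraries, whose pairing by number is not known, so it is no paired test of MyoD against MEF. A paired fit of those groups alone was not run.

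Transcripts of the members were tested in the same way, adjusted over 44724 transcripts. Levels here are the deposited TPM, while log2 fold changes come from counts scaled by edgeR. Differences read from the TPM can therefore depart from the fold changes printed beside them. Srebf1-201, a coding transcript, was at 44.7, 42.4 and 31.4 TPM in untreated MEFs, 37.6, 37.8 and 26.2 TPM in the MyoD group and 12.4, 10.1 and 5.77 TPM in the F/R/C group. It fell by 1.68 ± 0.23 on the log2 scale against MEF (adjusted p = 0.00474) and by 1.46 ± 0.23 against MyoD (adjusted p = 0.0106). Fdft1-201 fell from 44.3 ± 5.59 to 15.5 ± 2.23 TPM against MEF (-1.09 ± 0.19, adjusted p = 0.0115). For Srebf2, the coding transcript Srebf2-201 had 67.6 ± 4.04, 57.8 ± 5.60 and 54.2 ± 16.5 TPM and was not called. Another transcript of the gene, annotated as retaining an intron, rose from 10.7 ± 0.757 to 18 ± 4.35 TPM against MEF (1.18 ± 0.27, adjusted p = 0.0266). For Acaca, Acly and Insig1, which fell as genes against MEF, 0 transcripts were called, and the main Acaca transcript Acaca-201 had 16.1 ± 2.27, 11.2 ± 2.25 and 6.61 ± 2.65 TPM (-0.90 ± 0.27, adjusted p = 0.0687).

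Genes that feed, use or move the products were taken from lists beside the members, and they went in both directions. The shares to set them beside are those of all genes, of which 19.5% rose and 18.1% fell against MEF. Of 9 genes for acetyl-CoA and NADPH supply, 4 fell and 4 rose against MEF and the same numbers against MyoD. Slc25a1, the carrier that exports citrate from mitochondria for Acly, was at 122, 118 and 117 CPM in untreated MEFs, 107, 113 and 131 CPM in the MyoD group and 33.3, 42.2 and 34.2 CPM in the F/R/C group. It fell by 1.70 ± 0.16 on the log2 scale against MEF (adjusted p = 0.00036). Me1, the malic enzyme that yields NADPH, fell by 1.58 ± 0.27 (adjusted p = 0.00294), from 104 ± 11.3 to 34.9 ± 3.71 CPM. The other genes that fell, named after their values were seen, were the NADPH enzymes Idh1 (-1.70 ± 0.30, adjusted p = 0.00348) and G6pdx (-1.20 ± 0.27, adjusted p = 0.0087). Acss2, which makes acetyl-CoA from acetate, rose from 17.0 ± 2.95 to 59.8 ± 7.83 CPM (1.81 ± 0.25, adjusted p = 0.00124).

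Of 11 genes of glycerolipid synthesis and lipid droplets, 4 rose and 1 fell against MEF. Acsl1 and Acsl3, which activate fatty acids by joining them to CoA, rose from 35.2 ± 7.44 to 159.8 ± 25.3 CPM (2.18 ± 0.21, adjusted p = 0.000363) and from 31.0 ± 7.86 to 211 ± 14.7 CPM (2.77 ± 0.28, adjusted p = 0.000403). Dgat2, which makes triglyceride, rose from 8.52 ± 3.31 to 47.6 ± 5.89 CPM (2.48 ± 0.32, adjusted p = 0.000958). Agpat2, an acyltransferase earlier in that route, fell from 33.7 ± 1.35 to 13.5 ± 6.14 CPM (-1.32 ± 0.30, adjusted p = 0.0101). In these genes the MyoD libraries had means close to MEF, such as 28.9 CPM for Acsl3 and 6.45 CPM for Dgat2.

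**Figure D4:**
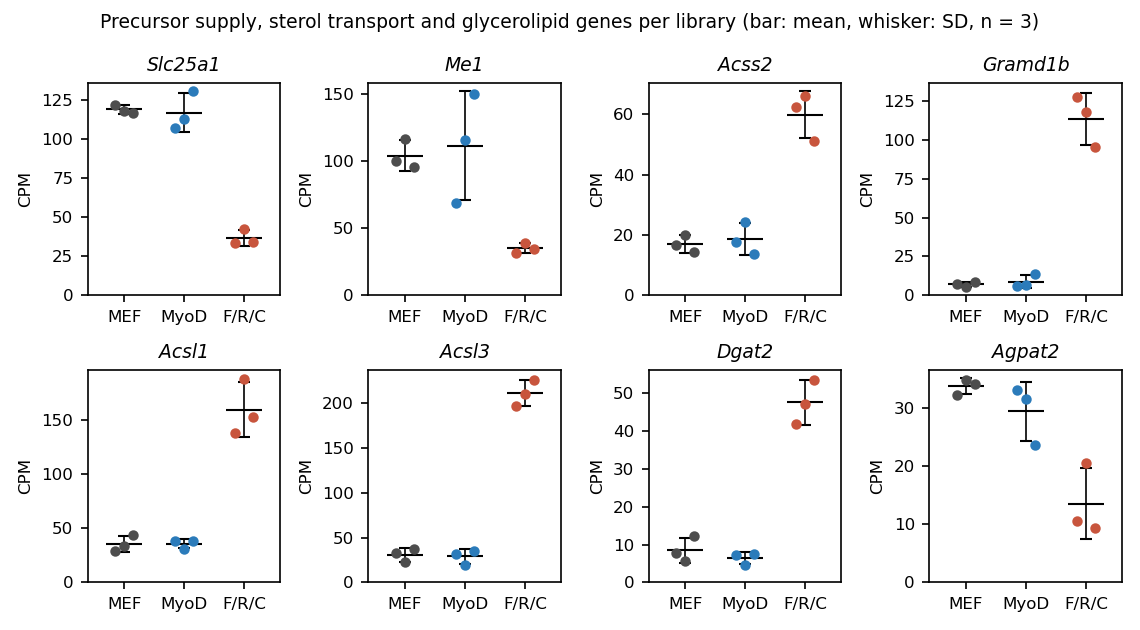
Points give CPM of each library for 8 genes beside the pathway, with the mean as a bar and the SD as a whisker (n = 3). Slc25a1, Me1 and Agpat2 sit lower, and Acss2, Gramd1b, Acsl1, Acsl3 and Dgat2 higher, in all 3 F/R/C libraries than in the 6 others.

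Of 12 genes for sterol uptake, storage and transport, 2 rose and 2 fell against MEF (16.7% each), close to the shares of all genes. Gramd1b, which carries cholesterol from the plasma membrane to the endoplasmic reticulum, was at 6.88, 5.27 and 8.49 CPM in untreated MEFs, 5.82, 6.80 and 13.7 CPM in the MyoD group and 128, 118 and 95.3 CPM in the F/R/C group. It rose by 4.05 ± 0.37 on the log2 scale against MEF (adjusted p = 0.000322) and by 3.70 ± 0.37 against MyoD (adjusted p = 0.000607). Npc2, a lysosomal cholesterol carrier, fell from 639.8 ± 54.8 to 260.0 ± 40.9 CPM (-1.30 ± 0.20, adjusted p = 0.00186). Gramd1a rose by a smaller step (0.47 ± 0.16, adjusted p = 0.0456). Of 9 genes for liver X receptors, efflux and oxysterols, the cholesterol exporter Abca1 fell (-2.25 ± 0.68, adjusted p = 0.0302) and the oxysterol-forming Cyp27a1 rose (2.30 ± 0.55, adjusted p = 0.0118) against MEF. Abca1 was at 65.3, 90.8 and 209 CPM in MEF and 26.8, 41.9 and 8.02 CPM in F/R/C libraries, and Cyp27a1 was low throughout, at 0.746 ± 0.212 and 3.69 ± 1.11 CPM.

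Of 13 genes of the prenyl branches, which use farnesyl and geranylgeranyl pyrophosphate, 3 rose (23.1%) and 2 fell (15.4%), again near the shares of all genes. Rabggtb, of the enzyme that prenylates Rab proteins, rose from 35.7 ± 0.363 to 82.8 ± 17.5 CPM (1.21 ± 0.20, adjusted p = 0.00264), and Zmpste24, a protease that trims prenylated proteins, fell from 110.1 ± 26.0 to 45.8 ± 6.30 CPM (-1.27 ± 0.21, adjusted p = 0.0027). Of 14 tested genes of elongation and desaturation, 1 rose (7.14%) and 2 fell (14.3%), both below the shares of all genes. Hacd1, a dehydratase of chain elongation that is known from muscle, rose from 13.9 ± 4.42 to 68.3 ± 13.7 CPM (2.29 ± 0.30, adjusted p = 0.00102), and its relative Hacd4 fell from 49.4 ± 24.1 to 8.38 ± 3.16 CPM (-2.56 ± 0.57, adjusted p = 0.00845).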

How the data were processed

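Polyadenylated RNA of 9 mouse libraries was sequenced after a stranded library preparation, per the labels' protocols. The authors used bcl2fastq 2.19, Trimmomatic 0.36, kallisto 0.44 and edgeR 3.28 with GRCm38.p6, per the submitters' processing notes, while for the annotation release and strand setting there is nothing given in the sources used here. The tables deposited by the authors hold an estimated count and a TPM for each of 121843 transcripts, per the file headers. Estimated counts were summed by gene with GENCODE M21 (121104 transcripts matched, the other 739 left out, 0.2% to 0.494% of the counts) and rounded. The deposited TPM were summed likewise and used for levels and, scaled to counts, for an alternative fit. How kallisto divides reads between overlapping or near-identical transcripts bears on Fdft1, Tm7sf2, Acat2, Scd1 and Scd2.

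Genes kept by filterByExpr (minimum count 10, minimum total 15), 15714 in all, were tested in 1 fit of 9 libraries with edgeR 4.0.16 in R 4.3.3 (quasi-likelihood F test after TMM scaling, two-sided), with Benjamini-Hochberg adjustment over all genes within a comparison and a threshold of 0.05. The test was checked on simulated data. The SE is the absolute log2 fold change over the square root of F. With 3 libraries against 3, an exact permutation test cannot go below p = 0.1. The members, lists and rules were chosen with earlier results of these data known. Per-library values were given for called members, at most 10 sterol enzymes (smallest p first), 6 regulators and 8 fatty acid enzymes, and for each other list up to 3 called genes of smallest adjusted p and 1 of the other direction. Mbtps2, the genes of the cell type lists and the other called genes of acetyl-CoA and NADPH supply were added for context.

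Deviations from the group mean of equal replicate numbers correlated at 0.711 to 0.775 between MyoD and MEF, which pairs them by the limit of 0.1. They correlated at 0.0691 to 0.141 between F/R/C and MEF and at 0.0944 to 0.144 between F/R/C and MyoD, which does not pair all of them. Alternatives were DESeq2 1.42.0, 2 other scalings, 2 other filters, fits of 2 groups, counts scaled from TPM, a replicate block and libraries left out.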

Additional observations from a re-analysis of the deposited data

How the results depend on the processing

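No member that was called changed sign in any of the 19 alternatives of a comparison. Against MEF, 9 of the 17 called members kept their call in all of them (Acaca, Acat2, Cyp51, Fads1, Fdft1, Msmo1, Scap, Srebf1 and Tm7sf2), and against MyoD 3 of 8 (Fdft1, Srebf1 and Tm7sf2). With 1 library left out, the number of members lower in F/R/C libraries was 11 to 17 against MEF and 4 to 11 against MyoD, and the number higher was 0 to 1 and 0 to 2. Without replicate 3 of both MEF and MyoD, 1 member (Insig2) was higher against MEF. Without replicate 1 of both, an alternative chosen after seeing the data, 10 members (30.3%) were lower against MEF and 4 (12.1%) against MyoD, where 14.1% and 11.3% of all genes were. Against MyoD, DESeq2 called 2 members higher (Pmvk and Ebp). The replicate block called 1 member higher against MyoD (Ebp), 20 members lower against MEF, 12 lower against MyoD, and 0 in MyoD against MEF. Whether F/R/C libraries pair with the others by number is not known, so these block counts are not read as pairs. The remaining alternatives gave 12 to 19 members lower against MEF and 8 to 12 against MyoD. Their causes were not tested. MyoD against MEF had 0 members called in every alternative run, although DESeq2 called 160 genes higher and 11 lower among all genes. Total counts as the only scaling moved the median of all genes by -0.19 in F/R/C against MyoD and by 0.10 in MyoD against MEF, and turned 2796 higher and 2531 lower genes in F/R/C against MyoD into 2295 and 3119. The members' median there was -0.64, against -0.20 for all genes. At this depth every member was above 5 CPM in every library.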
